A study of Mus musculus with 28 samples.

Results

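Reads on transfer RNA (tRNA) genes of the initiator methionine, elongator methionine, isoleucine, threonine, phenylalanine and tryptophan isotypes were examined in plasma extracellular vesicles (EVs) of mice. Members were all entries of the deposited count table named as mouse tRNA iMet, Met, Ile, Thr, Phe or Trp. They numbered 71 of 464 tRNA entries, in a table of 18710 small and circular non-coding RNAs. There were 10 iMet, 9 Met, 18 Ile, 19 Thr, 7 Phe and 8 Trp entries, which fall under 10 isotype and anticodon pairs. One small RNA library was made from each of 28 mice, in the groups KlHET_NMES (n = 8), KlHET_control (n = 8), WT_NMES (n = 6) and WT_control (n = 6). In KlHET mice 1 copy of Kl is disrupted. Its product, KLOTHO, is a membrane protein with a circulating form that declines with age. WT mice have both copies intact. NMES mice, 2 months old like their controls, had neuromuscular electrical stimulation of both hind legs at 9 mA in 5 sessions, each with 2 sets of 10 stimulations per leg, under 2.5% isoflurane. Control mice of both genotypes received the same anesthetic without stimulation, so exposure to isoflurane is shared by all 4 groups, and samples were taken 24 h after the last session. Kl mRNA is not part of this table, so the genotype labels were not checked against it here.

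A tRNA reads a codon of the mRNA with its anticodon and delivers the matching amino acid to the ribosome. Initiator methionine tRNA starts each protein, while elongator methionine tRNA reads internal AUG codons with the same CAT anticodon (written here as DNA). Isoleucine and threonine tRNAs serve branched or hydroxylated amino acids, and phenylalanine and tryptophan tRNAs serve aromatic ones. In plasma, tRNA sequence is found largely as fragments, which ride in EVs or in other particles. The counts below are reads on tRNA genes and do not tell a fragment from a whole tRNA.

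The reference tables held the gene sequence of 2 members' anticodons, an isoleucine and a threonine tRNA. They are shown because they let the anticodon be placed within the tRNA and an intron be seen. The first, n-TItat14 (GRCm38.p6, chr13:21896938-21897031 per RefSeq, minus strand), lies within the hairpin annotated as Mir1983. The second, n-TTagt9 (chr7:35234770-35234843, minus strand), lies within the start window of the gene Gm38989. Each is written 5′ to 3′ with the anticodon in capitals, at positions 35 to 37 counted from the first base.
n-TItat14 (Ile-TAT, 94 bases): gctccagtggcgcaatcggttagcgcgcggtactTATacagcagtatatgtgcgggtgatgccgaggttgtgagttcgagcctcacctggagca
n-TTagt9 (Thr-AGT, 74 bases): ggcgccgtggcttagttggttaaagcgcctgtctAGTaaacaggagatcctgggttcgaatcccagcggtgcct
The longer Ile-TAT gene holds an intron shortly after its anticodon, as is known of tRNA genes of this kind. The motif GTTCGANNC, part of the internal promoter known as the B box, starts at position 74 of the Ile-TAT gene and at position 54 of the Thr-AGT gene. The strand of each gene was set by the orientation that holds this motif, so its presence in them was given in advance. The motif was found in 0.84% of 32851 RefSeq start windows of 300 bases, searched on both strands. The mature miRNA annotated as miR-1983 takes 13 of its 21 bases from the 3′ end of the Ile-TAT gene and 8 from beyond it.
miR-1983 (chr13:21896930-21896950, minus strand, seed in capitals): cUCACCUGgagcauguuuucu
The mature miR-1983 entry had a single count, in 1 of 28 libraries, and its precursor entry had 31 counts spread over 14 libraries. RefSeq listed 64 tRNA genes of these anticodons on GRCm38.p6, of which 30 are on chromosome 13. Copy numbers such as those in tRNA-Trp-CCA-6-1 could not be paired with RefSeq gene symbols, so other entries were matched by anticodon alone.

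Library totals ranged from 531261 to 3389206 counts, and tRNAs took 7.99% to 63.3% of them. Scaling factors (TMM, a trimmed mean of ratios) ranged from 0.27 to 1.61, and the lowest were those of KlHET_control replicate 2 and WT_control replicate 5. All 15 marker miRNAs of other sources of plasma RNA (erythroid cells, platelets and leukocytes, liver, skeletal muscle, endothelium) had counts, and 10 passed the filter. Of these, miR-122-5p (liver) was lower in KlHET_control than in WT_control by 2.26 on the log2 scale (edgeR adjusted p = 0.024) and miR-126a-3p (endothelium) by 1.70 (adjusted p = 0.0216). No other call was made among these 10 in the 6 comparisons. In CPM, counts scaled to a common library size after TMM, the liver marker lay at 167 to 1378 CPM in KlHET_control, against 499 to 6539 CPM in WT_control, and the summed endothelial markers at 14.3 to 144 CPM in KlHET_control, against 79.8 to 412 CPM in WT_control. Their part in the tRNA values was not tested. Fewer EVs of 1 source and less RNA per EV cannot be told apart in these bulk libraries. All WT libraries carry names that start with A and all KlHET libraries names that start with J, so whatever that letter marks cannot be told apart from genotype. No 2 libraries agreed within sampling noise (smallest chi-square per degree of freedom 6.31).

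Copies of a tRNA gene had nearly equal counts. How reads that match several copies were counted is not given in the sources used here. Among the 70 pairs of copies that share an isotype, anticodon and sequence number, 34 pairs had the same count in all 28 libraries and none differed by more than 7 counts in any library. tRNA-Ile-AAT-5-1 and tRNA-Ile-GAT-1-1, which carry different anticodons, had the same count in 19 of 28 libraries and differed by at most 9 counts elsewhere. The 71 entries thus held 56 distinct rows, and the 34 entries that passed the filter on low counts held 22. Counts below are therefore given for the highest entry of an anticodon where levels are described, and entries of 1 anticodon are not independent of each other.

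All 71 members had at least 1 count, 474170 in all, and isoleucine held most of them. Ile-AAT took 85.5% and Ile-GAT 9.13% of member counts, against 1.59% for Thr-TGT, 1.34% for each of Phe-GAA and iMet-CAT, and 0.63% for Trp-CCA. Thr-CGT, Met-CAT, Thr-AGT and Ile-TAT followed with 0.19%, 0.15%, 0.099% and 0.025%. By the highest entry in each library, which keeps copies of 1 anticodon from adding up, the order began with Ile-AAT (43495 counts), Ile-GAT (43294), Thr-TGT (2761) and Trp-CCA (1922). Phe-GAA (956), iMet-CAT (778), Thr-CGT (596), Met-CAT (219), Thr-AGT (132) and Ile-TAT (45) came after them. The Ile-GAT values are not separate from those of Ile-AAT, because tRNA-Ile-GAT-1-1 had nearly the same counts as tRNA-Ile-AAT-5-1. The RefSeq genes listed included none named Ile-GAT. All 12 Ile-AAT entries, the Ile-GAT entry, 7 Phe-GAA, 8 iMet-CAT, 3 Thr-TGT, 2 Thr-CGT and 1 Trp-CCA entries passed the filter. No Met-CAT, Thr-AGT or Ile-TAT entry did. The RefSeq genes of these anticodons span 72 to 96 bases, and counts were not divided by length, so the order is one of counts.

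**Figure D1:**
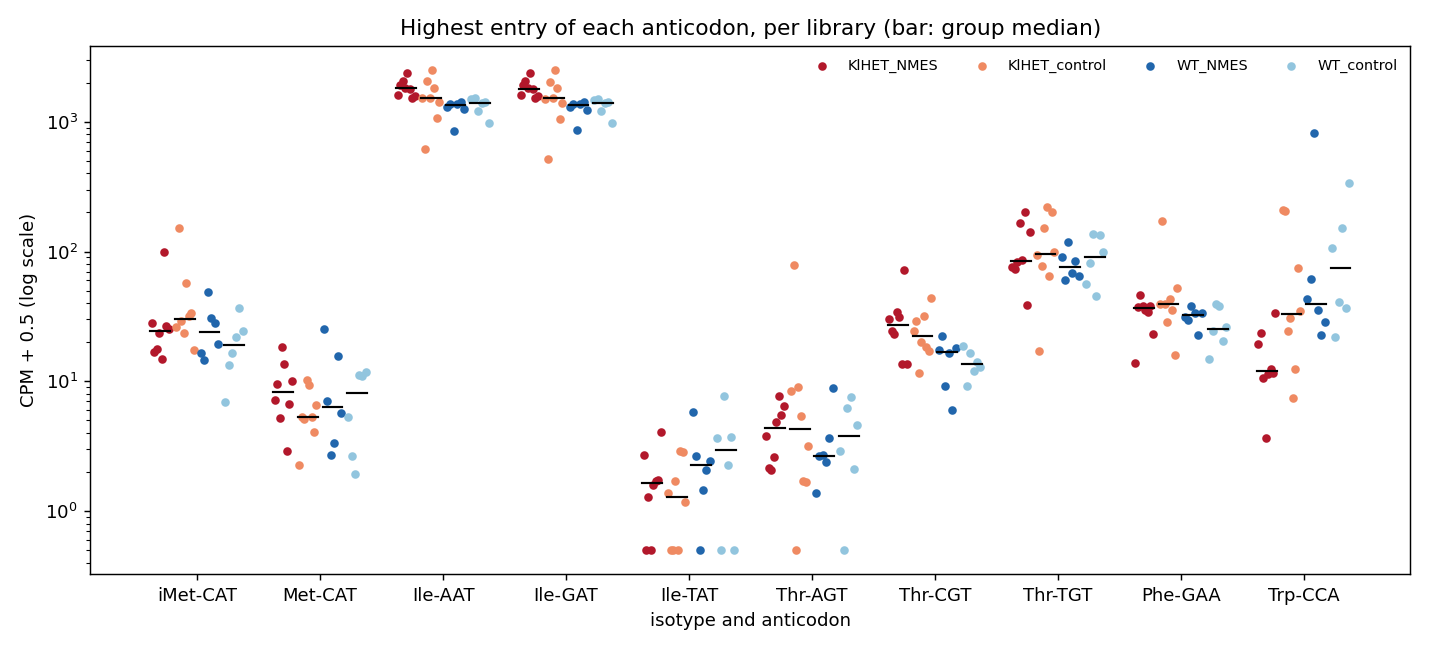
CPM plus 0.5 (log axis) of the highest entry of each anticodon in each of 28 libraries, with points for libraries and a bar for the median of KlHET_NMES, KlHET_control, WT_NMES and WT_control. Ile-AAT and Ile-GAT lie far above the rest, and Trp-CCA spreads from 3.15 to 812 CPM.

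Initiator methionine tRNA had nearly equal counts on 8 of the 10 iMet-CAT entries. tRNA-iMet-CAT-1-1 had 13 to 83 counts (median 21.5) in KlHET_NMES, against 19 to 64 (median 28.5) in KlHET_control. It had 13 to 35 counts (median 25.5) in WT_NMES, against 8 to 45 (median 17.5) in WT_control. The groups overlapped in each comparison. In control mice, KlHET exceeded WT by a log2 difference of 1.17 ± 0.49 (SE) for tRNA-iMet-CAT-1-1, which missed the threshold after adjustment (edgeR adjusted p = 0.192). For the iMet-CAT sum that difference was 1.23 ± 0.49 (adjusted p = 0.179) and 0.64 without KlHET_control replicate 2, the library with 64 counts. tRNA-iMet-CAT-2-1 had 0 to 18 counts per library, and tRNA-iMet-CAT-4-1 at most 1.

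Elongator methionine tRNA was sparse. tRNA-Met-CAT-1-1, its highest entry, had 1 to 17 counts (median 6.5) in KlHET_NMES, against 0 to 9 (median 3.5) in KlHET_control. In WT_NMES it had 1 to 28 counts (median 6.0), against 1 to 12 (median 4.0) in WT_control. The 9 Met-CAT entries reached the test only as a sum, with log2 differences of 0.89 ± 0.48 for NMES in KlHET mice (edgeR adjusted p = 0.502) and -0.26 ± 0.54 for NMES in WT mice (adjusted p = 1.00). tRNA-Met-CAT-7-1 had counts in 1 library.

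The initiator share, the percent of methionine tRNA counts that fell on initiator entries, was compared over libraries. With all entries summed, it was 70.4% to 99.4% in KlHET_NMES (median 85.4%), against 87.4% to 99.6% in KlHET_control (median 93.8%). It was 68.7% to 98.9% in WT_NMES (median 88.7%), against 76.2% to 92.9% in WT_control (median 86.2%). The mean share was 85.1% ± 8.46 in KlHET_NMES and 93.9% ± 4.23 in KlHET_control (SD, n = 8 each), a difference of -8.77 percentage points (two-sided, by exact permutation of libraries, p = 0.0171, or 0.0427 when adjusted for 5 comparisons). In control mice the mean was 93.9% ± 4.23 in KlHET and 85.3% ± 6.12 in WT, a difference of 8.62 points (exact permutation, p = 0.0133, adjusted p = 0.0427). Both comparisons rest on the same KlHET_control libraries. In WT mice NMES and control differed by 3.08 points (exact permutation adjusted p = 0.563), in NMES mice KlHET and WT by -3.23 points (exact adjusted p = 0.563), and NMES and control over both genotypes by -2.85 points (permutation adjusted p = 0.563). More of the initiator entries are copies with nearly equal counts, which raises their part of the sum. With the mean count per entry, the difference was -9.47 points for NMES against control in KlHET mice. Between genotypes in control mice it was then 9.34 points, and both stayed called (exact permutation, adjusted p = 0.0439 each). With the highest entry of each kind, an alternative chosen after seeing the data, the difference was -12.6 points in KlHET mice for NMES against control and 11.1 points in control mice for KlHET against WT, and neither passed (exact permutation, adjusted p = 0.226 each). In control mice the call was also lost without WT_control replicate 1, 4, 5 or 6, or without KlHET_control replicate 1, 2, 3, 5, 6 or 7 (exact permutation adjusted p from 0.0505 to 0.0824, differences from 6.81 to 9.23 points). For NMES in KlHET mice it was lost without KlHET_control replicate 1, 2, 3, 5, 6 or 7, or without KlHET_NMES replicate 2, 3, 4, 5, 7 or 8 (exact permutation adjusted p from 0.059 to 0.0855, differences from -9.04 to -6.67 points). Elongator counts per library were only 2 to 69, which limits each share.

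**Figure D2:**
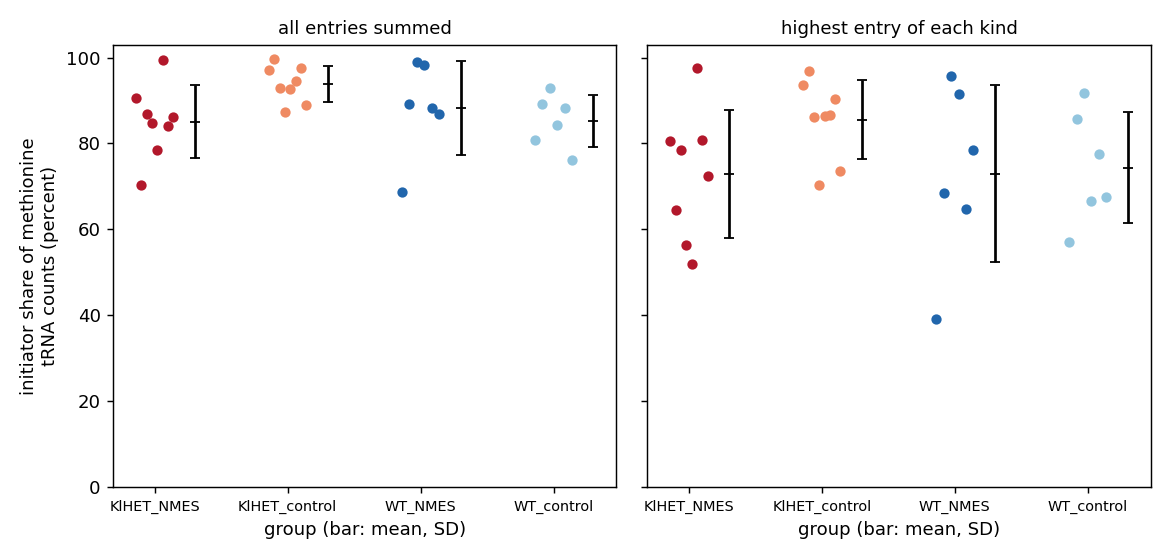
Initiator share (percent of methionine tRNA counts) in each library of KlHET_NMES, KlHET_control, WT_NMES and WT_control, with mean and SD, from all entries summed (left) and from the highest entry of each kind (right). On the left KlHET_control averaged 93.9%, above 85.1% in KlHET_NMES and 85.3% in WT_control, while on the right the groups spread over 39.1% to 97.6%.

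Isoleucine tRNA with the AAT anticodon held most of the counts. tRNA-Ile-AAT-4-1, the entry with most counts, had 1223 to 2649 counts (median 1613.5) in KlHET_NMES, against 207 to 2535 (median 1621.5) in KlHET_control. It had 387 to 1915 counts (median 1456.0) in WT_NMES, against 838 to 1861 (median 1482.5) in WT_control. The lowest values were those of KlHET_control replicate 2 and WT_NMES replicate 3. NMES and control differed by 0.21 ± 0.33 on the log2 scale in KlHET mice and by -0.11 ± 0.38 in WT mice for the Ile-AAT sum (edgeR adjusted p = 0.919 and 1.00).

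In NMES mice, 12 of the 13 isoleucine entries that passed the filter did not overlap between the genotypes after TMM scaling. The exception was tRNA-Ile-AAT-3-1, at 27.7 to 63.3 CPM in KlHET_NMES, against 10.98 to 40.3 CPM in WT_NMES. The Ile-TAT sum, from entries that did not pass, overlapped as well, at 0 to 10.7 CPM in KlHET_NMES, against 0 to 7.59 CPM in WT_NMES. tRNA-Ile-AAT-4-1 lay at 1522 to 2367 CPM in KlHET_NMES, against 850 to 1409 CPM in WT_NMES. Of 34 members, 12 lay above WT_NMES in every KlHET_NMES library, all of them Ile-AAT or Ile-GAT entries, while 0.348% of all 7174 entries tested did so (25 entries). Their counts are not independent. The Ile-AAT sum averaged 16964 ± 2394 CPM in KlHET_NMES (SD, n = 8) and 11718 ± 1918 CPM in WT_NMES (SD, n = 6). In the edgeR fit, whose dispersion is shared by all 4 groups, the log2 difference was not called. It was 0.53 ± 0.36 for the Ile-AAT sum (edgeR adjusted p = 0.638) and 0.54 ± 0.29 for Ile-GAT (adjusted p = 0.502). Neither was called under any of 10 alternatives, which included DESeq2 and a fit of only the groups compared. The lowest adjusted p among these edgeR and DESeq2 fits was 0.188 for Ile-AAT and 0.218 for Ile-GAT. Scaled by library total alone, tRNA-Ile-AAT-4-1 ranged from 1445 to 2996 CPM in KlHET_NMES, against 667 to 1781 CPM in WT_NMES, and the groups overlapped. In control mice the genotypes overlapped, with a log2 difference of 0.21 ± 0.35 for the Ile-AAT sum. The liver marker miR-122-5p, at 64.7 to 1086 CPM in KlHET_NMES against 566 to 2020 CPM in WT_NMES, moved the other way with overlap.

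tRNA-Ile-AAT-3-1 was far lower than the other Ile-AAT entries, with 5 to 89 counts per library. In NMES mice its log2 difference between KlHET and WT was 0.64 ± 0.25 (edgeR adjusted p = 0.273). The 5 Ile-TAT entries, with the anticodon of the gene with an intron printed above, had 117 counts together, at most 6 on any entry in a library, and no count in 8 of 28 libraries. They read the codon AUA.

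Threonine tRNA came mostly from the TGT anticodon. tRNA-Thr-TGT-2-1 had 31 to 168 counts (median 97.0) in KlHET_NMES, against 7 to 221 (median 114.5) in KlHET_control, and 54 to 105 (median 85.5) in WT_NMES, against 51 to 165 (median 84.5) in WT_control. The groups overlapped, and the Thr-TGT sum differed by -0.11 ± 0.40 for NMES in KlHET mice and by -0.29 ± 0.47 in WT mice (edgeR adjusted p = 0.978 and 1.00). The lowest count, 7, was that of KlHET_control replicate 2.

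Thr-CGT was less abundant. tRNA-Thr-CGT-2-1 had 11 to 58 counts (median 28.5) in KlHET_NMES, against 4 to 27 (median 18) in WT_NMES, and 12 to 65 counts (median 15.5) in KlHET_control, against 8 to 23 (median 12.5) in WT_control. Its log2 difference between genotypes was 1.02 ± 0.36 in NMES mice and 0.84 ± 0.36 in control mice, and neither passed (edgeR adjusted p = 0.181 and 0.197). tRNA-Thr-CGT-1-1 differed by 1.64 ± 0.58 in control mice (adjusted p = 0.107) and had 1 to 30 counts per library. The Thr-CGT sum differed by 1.03 ± 0.37 in control mice (adjusted p = 0.117) and by 0.72 ± 0.36 in NMES mice (adjusted p = 0.438). In NMES mice that value was 0.36 without KlHET_NMES replicate 7, whose level of 112 CPM was the highest. Thr-AGT, the anticodon of the printed threonine gene, stayed at 0 to 33 counts on its highest entry, and the 33 counts were those of tRNA-Thr-AGT-8-1 in KlHET_control replicate 2. By highest entry, Thr-TGT made up a median of 75.7% of threonine counts in KlHET_NMES, 80.6% in KlHET_control, 81.3% in WT_NMES and 85.9% in WT_control.

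Phenylalanine tRNA was held by 7 Phe-GAA entries, of which 5 had the same count in every library. tRNA-Phe-GAA-1-1 had 12 to 59 counts (median 31.0) in KlHET_NMES, against 13 to 77 (median 42.5) in KlHET_control. It had 17 to 51 counts (median 31.5) in WT_NMES, against 18 to 42 (median 25) in WT_control. All pairs of groups overlapped. The Phe-GAA sum was higher in KlHET_control than in WT_control by 1.00 ± 0.39 on the log2 scale, which missed the threshold (edgeR adjusted p = 0.158) and was 0.41 without KlHET_control replicate 2, at 1199 CPM the highest library. With NMES it differed by -0.69 ± 0.35 in KlHET mice (adjusted p = 0.454) and by 0.23 ± 0.40 in WT mice (adjusted p = 1.00).

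Tryptophan tRNA held the only call among members, on 1 entry. tRNA-Trp-CCA-6-1 had 17, 28, 10, 3, 10, 10, 9 and 28 counts in the KlHET_NMES libraries, replicates 1 to 8. In KlHET_control it had 235, 60, 26, 25, 7, 10, 63 and 51 counts. In WT_NMES it had 48, 56, 370, 37, 28 and 43 counts, against 134, 20, 28, 169, 45 and 323 in WT_control. KlHET_NMES libraries were low, at 28 counts or fewer, while 1 library in each of the other 3 groups reached 235, 370 or 323 counts.

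Between genotypes in NMES mice, tRNA-Trp-CCA-6-1 fell by 3.44 on the log2 scale in KlHET mice (SE 0.84, edgeR adjusted p = 0.0287), at 3.15 to 33.3 CPM in KlHET_NMES, against 22.3 to 812 CPM in WT_NMES. The groups overlapped slightly. This was the only member called of 34 tested in this comparison, in which 1.53% of all entries were called. The size of the difference rests on WT_NMES replicate 3, the library with 370 counts. Without it the log2 difference was -1.31 (adjusted p = 0.449). The call was also lost without KlHET_NMES replicate 3, 4, 5, 6 or 7 (adjusted p from 0.0517 to 0.0607, log2 differences from -3.40 to -3.28). The call was lost as well with tRNA rows alone (-3.15, adjusted p = 0.202) and with scaling by library size alone (-2.92, adjusted p = 0.0748). In WT_NMES replicate 3 the summed skeletal muscle markers, at 356 CPM, were the highest of the group, and the summed platelet and leukocyte markers, at 15.4 CPM, the lowest. Its erythroid (2470 CPM), liver (1260 CPM) and endothelial (198 CPM) markers lay inside the range of the group. Muscle markers reached 1774 CPM in KlHET_control, 1484 CPM in WT_control and 267 CPM in KlHET_NMES. The lowest platelet and leukocyte values there were 4.77, 10.1 and 5.75 CPM. Their part in the value was not tested.

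The same entry differed by -2.13 ± 0.78 between NMES and control in KlHET mice (edgeR adjusted p = 0.176) and by 0.51 ± 0.84 in WT mice (adjusted p = 1.00). The WT value turned to -1.62 without WT_NMES replicate 3. The difference between these effects was -2.64 ± 1.14 (edgeR adjusted p = 0.476), so tRNA-Trp-CCA-6-1 was not shown to respond to NMES in 1 genotype more than in the other. In control mice the genotypes differed by -0.80 ± 0.78 (adjusted p = 0.691).

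The other 7 Trp-CCA entries did not pass the filter, and low counts limit a comparison of their pattern with that of tRNA-Trp-CCA-6-1. Any single entry among them held 0 to 13 counts per library in KlHET_NMES, up to 11 in WT_NMES and up to 18 in WT_control. Together they held more. The sum of all Trp-CCA entries reached 58 counts in KlHET_NMES, where the highest entry had at most 28. In KlHET_control replicate 2 tRNA-Trp-CCA-1-1 and tRNA-Trp-CCA-5-1 reached 86 counts each. Over the 28 libraries, tRNA-Trp-CCA-6-1 had a Spearman correlation of 0.26 with the highest of them and of -0.78 with Ile-AAT in CPM, values that share libraries, depth and scaling. The Trp-CCA sum differed by -2.69 ± 0.77 for NMES in KlHET mice (edgeR adjusted p = 0.0601) and by -2.61 ± 0.80 between genotypes in NMES mice (adjusted p = 0.104). Without WT_NMES replicate 3 the difference between genotypes in NMES mice was -1.005 (edgeR adjusted p = 0.634). Without KlHET_control replicate 2, the sum was at -1.30 for NMES in KlHET mice, and in NMES mice it was called between genotypes (log2 difference -2.61, adjusted p = 0.021). For NMES in KlHET mice the sum was called, at adjusted p from 0.033 to 0.0455, without WT_NMES replicate 3 or without KlHET_control replicate 3, 4, 5, 6 or 8.

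**Figure D3:**
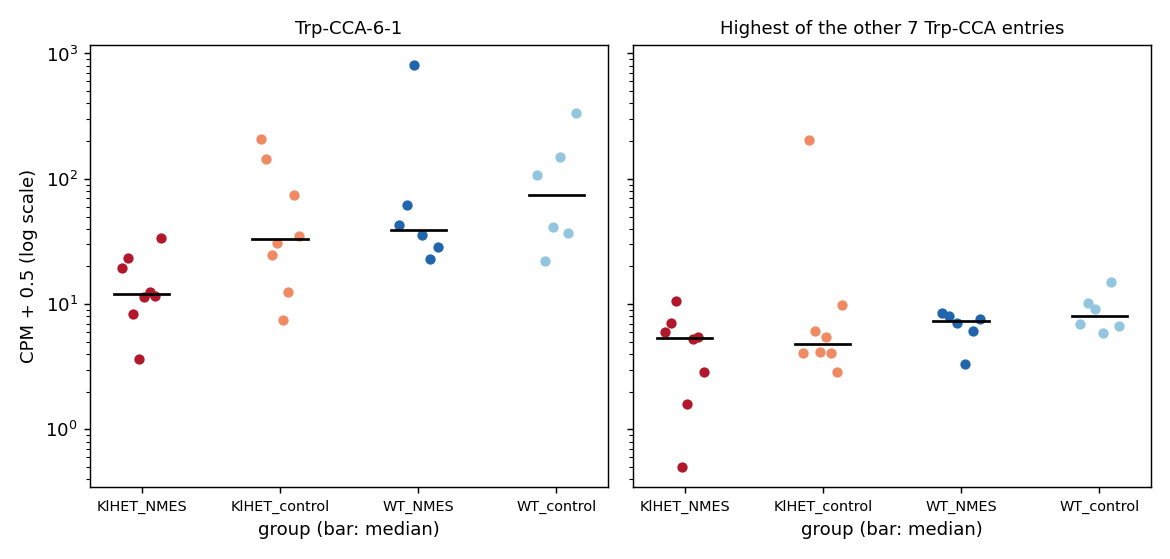
CPM plus 0.5 (log axis) of tRNA-Trp-CCA-6-1 (left) and of the highest of the other 7 Trp-CCA entries (right) in each library of KlHET_NMES, KlHET_control, WT_NMES and WT_control, with bars for medians. On the left KlHET_NMES libraries lie at 3.15 to 33.3 CPM and a single WT_NMES library reaches 812 CPM.

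Across all comparisons, few members were called. For NMES against control, 0 of 34 members were called at an adjusted p under 0.05 over both genotypes, in WT or in KlHET mice, where 0%, 0% and 2.12% of all 7174 entries were called by edgeR. DESeq2 called 0 of them as well. At an unadjusted p under 0.05, 0, 0 and 1 of them passed, the last being tRNA-Trp-CCA-6-1, among 9.53% of all entries that were lower in KlHET mice at that threshold. That count of 1 was 9 without KlHET_NMES replicate 6, 8 without KlHET_control replicate 7, 7 without KlHET_control replicate 4, 6 without KlHET_NMES replicate 3 and 0 without KlHET_control replicate 1. For the difference of the NMES effects, 0 members were called by edgeR or DESeq2 (0% of all entries), and 1, the same entry, was lower at an unadjusted p under 0.05 (5.48% of all). Over both genotypes the smallest p among members was that of tRNA-Trp-CCA-6-1 (log2 difference -0.81 ± 0.57, edgeR adjusted p = 0.701), followed by tRNA-Thr-CGT-1-1 (0.41 ± 0.39, adjusted p = 0.819) and tRNA-Ile-AAT-3-1 (-0.16 ± 0.18, adjusted p = 0.848).

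Between genotypes, 0 of 34 members were called in control mice by edgeR or DESeq2, where 4.36% of all entries were called by edgeR, although 17 were higher in KlHET mice at an unadjusted p under 0.05 (10.3% of all) and 0 were lower. The 17 were 8 iMet, 7 Phe and 2 Thr entries with 8 distinct rows of counts. Without KlHET_control replicate 2 the count was 2 of 34, without WT_control replicate 1 it was 8 of 36, and with KlHET_control replicate 2 and WT_control replicate 5 both left out it was 8 of 36. It was 9 with scaling by library size alone. In NMES mice 10 members were higher at that threshold (4.81% of all), of which 9 were Ile-AAT entries from 2 sequence numbers, and 1 was lower (6.61% of all). Of those 9, 8 lay just under the threshold. The count of 10 was 2 with TMMwsp, a robust fit or library size alone, and 14 with DESeq2 or without KlHET_control replicate 2. It was 4 without KlHET_NMES replicate 6, 9 or 10 without WT_control replicate 1, KlHET_control replicate 3 or KlHET_NMES replicate 7, and 2 without any other single library. For anticodon sums, 0 of 9 were called by edgeR in any comparison, and DESeq2 also called 0, though it gave no adjusted p for the Trp-CCA sum. Among all 6879 rows of that table, 0%, 0%, 2.15%, 0%, 3.85% and 1.66% were called for NMES over both genotypes, in WT, in KlHET, for the difference of effects, and for KlHET against WT in control and in NMES mice. At an unadjusted p under 0.05, the Trp-CCA sum was lower with NMES over both genotypes and in KlHET mice. It was also lower for the difference of effects and between genotypes in NMES mice. The Thr-CGT, Phe-GAA and iMet-CAT sums were higher in KlHET than in WT control mice at that threshold. Among all 6879 rows, 445 were lower at that threshold over both genotypes, 395 for the difference of effects and 471 between genotypes in NMES mice. With NMES in KlHET mice, more rows were lower than in any of these comparisons. Between genotypes in control mice, 693 rows were higher.

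**Figure D4:**
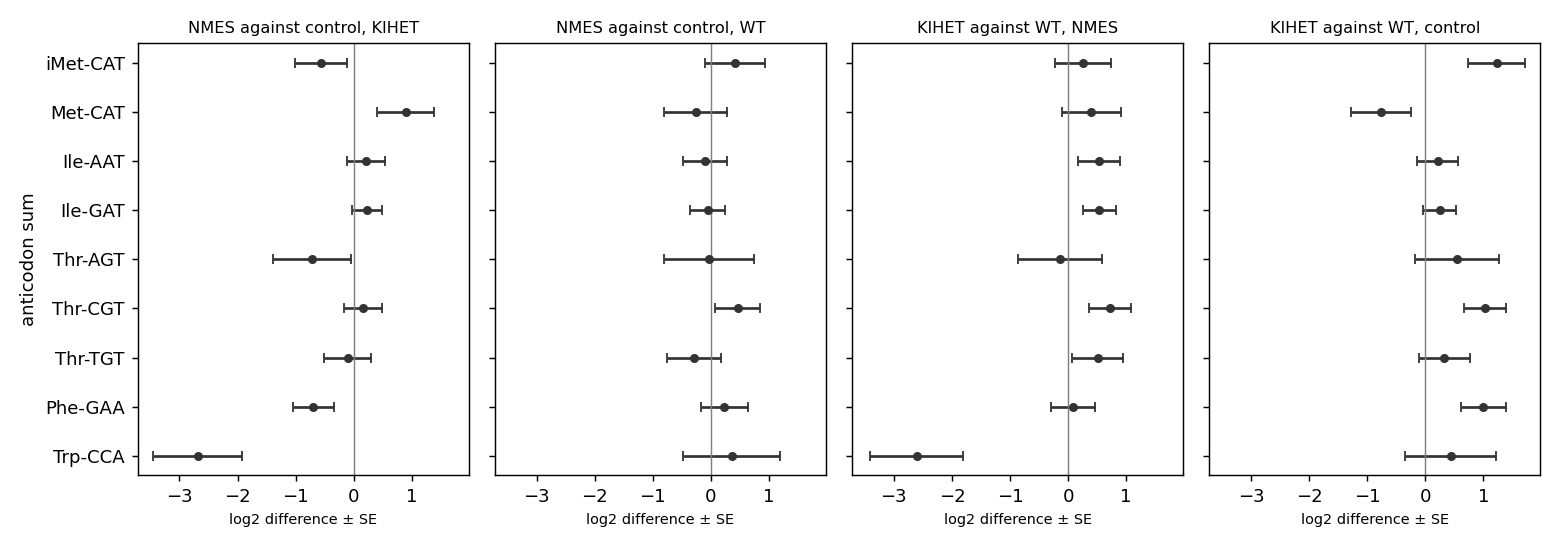
Log2 differences (points) with standard errors (bars) of 9 anticodon sums for NMES against control in KlHET and in WT mice and for KlHET against WT in NMES and in control mice. Trp-CCA lies at -2.69 for NMES in KlHET mice and at -2.61 between genotypes in NMES mice, and all other points lie between -0.76 and 1.23.

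Values of the remaining tRNA isotypes under NMES are given for comparison. Over both genotypes, 147 of 308 other tRNA entries were lower in NMES mice at an unadjusted p under 0.05, against 0 of 34 members. Among all 7174 entries 577 were lower, and none were called by edgeR. The 34 members held 22 distinct rows of counts, and distinct rows among the other tRNA entries were not counted. The 147 rest on few libraries. Without WT_control replicate 5 there were 66 of 312 (median log2 difference -0.42), without WT_NMES replicate 4 there were 94 of 314, and with KlHET_control replicate 2 and WT_control replicate 5 both left out there were 30 of 309 (median -0.18), against 0 of 36 members (median 0.01). Scaling by library size alone gave 37. DESeq2 called 13 of the other entries and 0 members. The median log2 difference was -0.07 among members, -0.78 among other tRNAs and -0.05 among all entries. Within the members, medians were 0.04 for Ile, -0.07 for iMet, -0.14 for Thr and -0.21 for Phe. The 1 Trp entry tested lay lower, at -0.81. Among other isotypes they were lowest for Gln (-2.05) and Pro (-1.79), with 16 of 17 and 16 of 18 entries lower at that threshold. Asn (0.21), Leu (0.02), Tyr (0.00) and Lys (-0.08) had medians near those of Ile, iMet, Thr and Phe, so medians near 0 were not particular to the members. In KlHET mice 94 of 308 other entries were lower with NMES, against 1 of 34 members and 684 of all 7174 entries. Without KlHET_control replicate 2, 36 of 307 other entries were lower. In WT mice 56 other entries were lower, against 0 members and 276 of all 7174 entries. Without WT_control replicate 5, 34 of 312 other entries were lower, and the median of the other tRNAs was 0.01 in place of -0.56. The difference between these lists was not tested. Scaled by library size alone, the median over all entries moved by up to 0.43 and that of the other tRNAs over both genotypes was -0.24, against 0.17 for members.

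**Figure D5:**
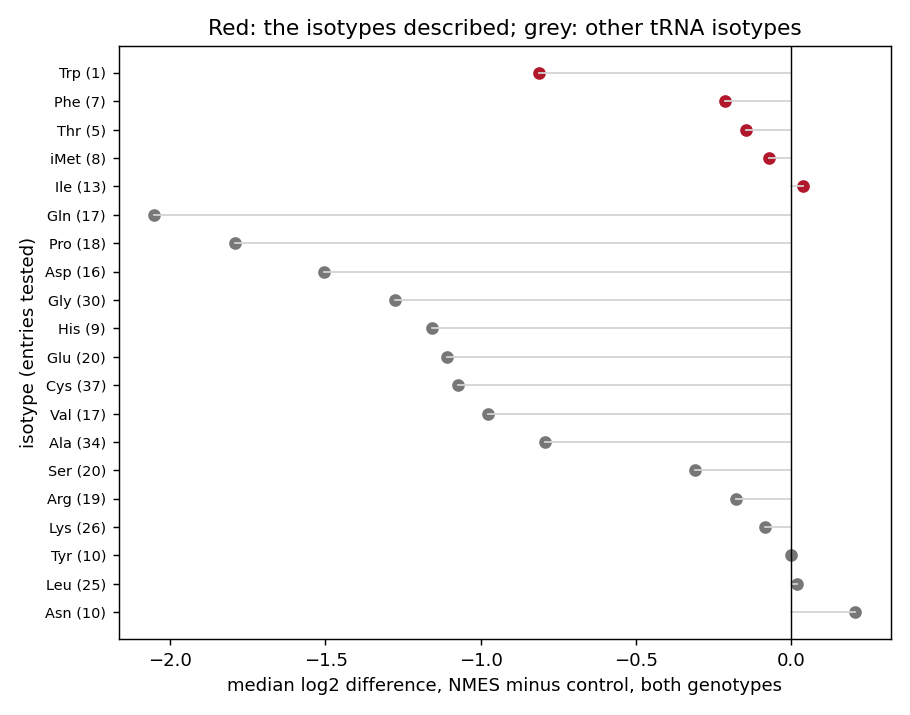
Median log2 difference between NMES and control mice over both genotypes (horizontal axis) for each tRNA isotype, with the number of entries tested, red for the isotypes described and grey for the other tRNAs. Ile, iMet, Thr and Phe lie between -0.21 and 0.04, and Trp, with 1 entry tested, lies at -0.81. Gln lies at -2.05 and Pro at -1.79, with all 28 libraries in the fit.

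The members' part of tRNA counts was also set side by side. Their share of each library's tRNA counts was 9.91% to 23.5% (median 18.5%) in KlHET_NMES, against 1.71% to 15.7% (median 7.98%) in KlHET_control. It was 2.70% to 13.8% (median 5.97%) in WT_NMES, against 0.91% to 14.7% (median 7.34%) in WT_control. The groups overlapped. As a share of whole libraries, members made up 1.56% to 3.31% in KlHET_NMES, 0.28% to 2.97% in KlHET_control, 0.84% to 1.94% in WT_NMES and 0.58% to 2.52% in WT_control. Both kinds of share sum all entries, so copies with nearly equal counts add up in them. Member counts were 474170 when summed, against 94198 by the highest entry of each anticodon in each library. No test was run on these shares over the members.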

How the data were processed

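Small non-coding RNA from plasma EVs (column kit) was sequenced as single-end reads. Per the labels and the study's methods, the authors aligned reads with STAR 2.5.3a (build mm10), counted them with COMPSRA 1.0.3 and used DESeq2 1.42.1. The deposited values are whole-number raw counts per RNA. Groups came from the labels, and 0 sample columns were left out.

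All 18710 entries were filtered with filterByExpr, scaled with TMM and fitted with edgeR 4.0.16 (quasi-likelihood, R 4.3.3) over all 28 libraries, with Benjamini-Hochberg adjustment over the whole table and a threshold of 0.05. CPM use the TMM-scaled library size. Standard errors follow from the F statistic. Shares were compared by two-sided permutation tests (scipy 1.17.1), exact within a genotype or treatment and with 100000 resamples over both genotypes. Simulated counts with known changes were used to check the fits. Marker lists (15 miRNAs) covered erythroid, platelet and leukocyte, liver, muscle and endothelial cells.

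Named members are every anticodon sum, the top entry per isotype, each called entry and the 3 smallest p per comparison; others with values were chosen after these were seen. Members and lists were chosen with earlier results of these data known. Alternatives were DESeq2 1.42.0, tRNA rows alone, library size alone, TMMwsp, no filter, only the groups compared, a filter of 10 counts in 6 or more libraries, isodecoder sums, robust fitting, a log2 ratio or mean per entry for the initiator share, and left-out libraries. The highest entry in place of sums was added after seeing the data. Libraries carry no molecular identifiers, so counts are not independent molecules. The p-values set differences between groups against the spread between libraries, 1 per mouse.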

Additional observations from a re-analysis of the deposited data

Results flagged for a closer look

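In 48 sets of libraries, each 1 group and 1 measure (10 anticodon sums in CPM, tRNA-Trp-CCA-6-1 in CPM and the initiator share), 11 held a library far from the rest by Dixon's criterion. Chance flags about 1 in 20 groups of normally distributed values, which CPM need not be. Some sets also repeat the same reads, as Ile-AAT with Ile-GAT and the Trp-CCA sum with tRNA-Trp-CCA-6-1. The 11 were therefore not set against that rate. In WT_NMES replicate 3, tRNA-Trp-CCA-6-1 lay at 812 CPM with the next library at 60.7, the Trp-CCA sum at 852 with the next at 82.4, the Ile-AAT sum at 7966 with the next at 11667, and the Ile-GAT sum at 865 with the next at 1242. In KlHET_control replicate 2, which had the lowest scaling factor, the iMet-CAT sum lay at 1264 CPM with the next library at 458, the Phe-GAA sum at 1199 with the next at 340.2, and the Trp-CCA sum at 1118 with the next at 228. Single sums stood out in 4 more libraries: iMet-CAT at 793 CPM in KlHET_NMES replicate 6, Thr-CGT at 112.0 CPM in KlHET_NMES replicate 7, Thr-AGT at 52.7 CPM in WT_NMES replicate 6 and Trp-CCA at 369.9 CPM in WT_control replicate 6.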

How the results depend on the processing

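The only called member, tRNA-Trp-CCA-6-1 lower in KlHET than in WT mice under NMES, gave 0 members called with tRNA rows alone (log2 difference -3.15, edgeR adjusted p = 0.202) and with library size alone (-2.92, adjusted p = 0.0748), and 1 under the others that kept all libraries or left out the 2 with the lowest scaling factors, with adjusted p down to 0.00205 (DESeq2). Leaving out single libraries gave 0 to 1 called. For anticodon sums, Trp-CCA made the count 1 in place of 0 with tRNA rows alone for NMES in KlHET mice (-2.86, adjusted p = 0.0228). It did so between genotypes in NMES mice with only the groups compared (-2.60, adjusted p = 0.0493), with both libraries of the lowest scaling factors left out (-2.60, adjusted p = 0.0243) and with the highest entry in place of the sum (-3.40, adjusted p = 0.0298). Leaving out single libraries gave 0 to 1 in both comparisons. Counts over all entries moved more: with those 2 libraries left out, calls for NMES in KlHET mice numbered 0 in place of 152, and between genotypes 65 in place of 313 in control mice (3 higher and 62 lower in place of 183 and 130) and 183 in place of 110 in NMES mice. DESeq2 gave 26, 233 (94 higher, 139 lower) and 190, library size alone 15, 104 (41 higher, 63 lower) and 34, and only the groups compared 0, 9 and 144. Other counts of called members stayed at 0 under every alternative run. The initiator share in KlHET mice, NMES against control, was no longer called with the highest entry (-12.6 points), with both libraries left out (-7.95 points) and as a log2 ratio (-1.42). The genotype difference in control mice was no longer called with the highest entry (11.1 points) or both libraries left out (8.41 points). Without single libraries these differences were -10.8 to -6.67 points and 6.81 to 10.2 points. With the mean count per entry both differences stayed called (-9.47 and 9.34 points, exact permutation adjusted p = 0.0439 each). As a log2 ratio the genotype difference in control mice stayed just under the threshold (1.78, exact permutation adjusted p = 0.04995). In WT mice NMES against control turned to -1.43 points with the highest entry, and the log2 difference of tRNA-Trp-CCA-6-1 turned to -1.62 without WT_NMES replicate 3, with values from -1.62 to 1.21 over the libraries left out. No paired analysis was possible because the labels give no replicate numbers that groups share. Low counts limit the Met-CAT, Ile-TAT and Thr-AGT entries, none of which passed the filter.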
